A study of Homo sapiens with 8 samples.

Results

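The experiment described here asked which LNCaP transcripts stayed higher when caffeine was kept during a block of transcription. LNCaP is a prostate carcinoma line derived from a lymph node metastasis. Cells that had been in 10 mM caffeine for 4 hours were washed and given 2 μg/ml actinomycin D for 4 more hours, on one plate together with 10 mM caffeine and on another without it, and RNA of each plate went to 1 Affymetrix U133 Plus 2.0 array. These are called the with-caffeine array and the alone array below. Every difference is the with-caffeine array minus the alone array on the log2 scale, so 1 unit is a factor of 2 and a positive value is a transcript that was higher when caffeine was kept. The members are the probe sets, each a group of short probes for a transcript, with a log2 signal of at least 4 on either array: 21869 of the 54613 probe sets that are not controls. They include the main probe sets of 10723 genes, out of 19775 genes with a probe set of their own, where the main probe set of a gene is the one with the highest mean over the 4 LNCaP arrays. The other LNCaP arrays were from untreated cells and from cells taken after the 4 hours of caffeine, the start of the second step. The 22Rv1 line, established from a CWR22 xenograft of prostate carcinoma, had the same 4 treatments and 4 arrays, so the series holds 8 arrays. No treatment of LNCaP was repeated, so its differences have no replicate check, and no test of them is given.

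Nonsense-mediated mRNA decay (NMD) is a surveillance pathway that degrades transcripts whose translation ends well upstream of an exon junction, and the phosphorylation of UPF1 by the kinase SMG1 is a central step in it. Besides transcripts with a mutation, its natural substrates include mRNAs with short upstream reading frames, hosts of small nucleolar RNAs and splice forms that carry a premature stop codon. Caffeine inhibits kinases of the family SMG1 belongs to and is used to hold NMD back, and it also acts on other targets, among them cyclic nucleotide phosphodiesterases. Actinomycin D binds DNA and blocks transcription, so that mRNAs decline at the pace of their own decay. The deposited signals were normalized to a common distribution over the arrays, so each gives a transcript's level relative to the rest of its array, and a loss shared by all mRNAs does not show. A lower signal can come from less of a transcript per cell or from fewer cells that hold it, which cannot be told apart in RNA of a whole plate.

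The 2 arrays differed in their control probe sets before any gene is considered. The 3 probe sets for 18S rRNA had a mean log2 signal of 5.60 on the untreated array, 4.09 on the caffeine array, 11.71 on the with-caffeine array and 6.25 on the alone array. The with-caffeine array therefore stood apart from the other LNCaP arrays, and the 18S difference of 5.45 (SD 0.45 over 3 probe sets) compares with 1.08 in 22Rv1. One 28S rRNA probe set was higher by 3.90, another was lower, at -0.96, and the third stayed at the lowest value of the array. The 18 hybridization controls, added to the labelled RNA, differed by a mean of -0.12 (SD 0.13), with 16 of 18 below 0. The 24 probe sets of the poly-A controls, bacterial RNAs with a poly-A tail added before labelling, split by position: the mean difference was 0.20 (SD 0.30) over the 8 at the 3' end, -0.38 (SD 0.39) over the 8 in the middle and -0.98 (SD 0.42) over the 8 at the 5' end. In 22Rv1 the same positions had means of -0.17, -0.38 and -0.67. The ACTB control probe sets had 0.05 at the 3' end and -0.56 at the 5' end, and those of GAPDH -0.14 and -0.05. The poly-A and ACTB controls were thus lower at their 5' ends on the with-caffeine array than on the alone array, and GAPDH was not. The mean signal of the poly-A controls at the 3' end exceeded that at the 5' end by 2.02 on the untreated, 1.83 on the caffeine, 2.23 on the with-caffeine and 1.05 on the alone array, and for ACTB by 2.14, 2.07, 1.81 and 1.20, so that for both the alone array had the smallest excess in LNCaP. The part of the 18S signal and of this end difference in the values below was not tested.

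**Figure D1:**
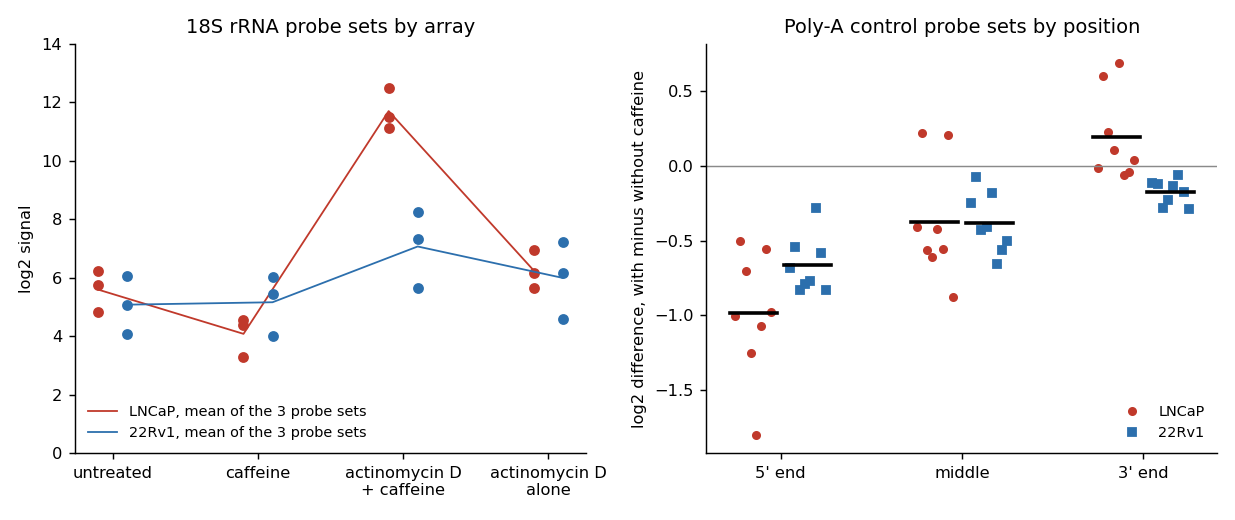
Left, log2 signal of the 3 probe sets for 18S rRNA on each array (points) with their mean (lines) for LNCaP and 22Rv1. Right, log2 difference of the poly-A control probe sets between the arrays with and without caffeine, 8 per position and line, with the mean as a bar. The with-caffeine LNCaP array has an 18S mean of 11.71, and the difference falls from 0.20 at the 3' end to -0.98 at the 5' end.

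The luminal markers were detected, as in a prostate epithelial line, and a pair of stroma markers moved on the actinomycin D arrays. All 8 luminal prostate epithelium markers were detected on the 2 arrays, at 6.64 to 12.26. KRT18, a luminal keratin, stood at 12.26 with caffeine and 12.01 without it, and the prostate transcription factor HOXB13 at 10.61 and 9.97. None of the 3 basal markers (KRT5, KRT14 and KRT15) and none of the 5 blood cell markers reached 4, and their highest value on the 2 arrays was 2.76. Among the 6 fibroblast and stroma markers VIM, COL1A1 and DCN were detected. VIM, the intermediate filament vimentin, was at 9.64 and 9.34 on the actinomycin D arrays against 6.58 on the untreated and 6.74 on the caffeine array, while COL1A1, a collagen chain, was at 5.29 and 5.82 against 8.50 and 8.39. COL1A2, COL3A1 and LUM stayed between 2.29 and 2.55 on the 2 arrays. Between the 2 arrays compared VIM and COL1A1 differed by less than 1, and the part of what moved them in the values below was not tested.

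Over the 21869 detected probe sets the difference had a median of 0.02 and an SD of 0.68 and ran from -5.90 to 4.10. Higher with caffeine by at least 1 were 1155 probe sets (5.28%), and lower by at least 1 were 1482 (6.78%). Counted by genes, 559 of 10723 were higher (5.21%) and 342 were lower (3.19%), with a median of 0.10 and an SD of 0.58. The balance thus turned with the unit counted, since 43.8% of the probe sets past 1 and 62.0% of the genes past 1 were higher. The excess of lower probe sets lay in the dimmer ones of each gene: among the 8072 detected probe sets that are not the main one of their gene, 383 were higher (4.74%) and 922 lower (11.4%). It also turned with the scale. With the arrays made equal on the hybridization controls 743 genes were higher and 270 lower (73.3% higher). With the gene median set to 0 the counts were 439 and 454 (49.2% higher). With the probe sets made equal on the mean of all 24 poly-A control probe sets, -0.39, 2928 probe sets were higher and 748 lower (79.7% higher). That mean joins positions of opposite sign, 0.20 at the 3' end and -0.98 at the 5' end. No count was made with the 3' controls alone, so this split depends on the controls used. Only the order of the genes, and not the sign of a small difference, is free of the choice of scale.

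Differences past 1 were more frequent among weak signals. Of 2647 genes with a mean below 6 on the 2 arrays, 10.5% were higher and 5.44% lower, while of 1741 genes with a mean of 10 or more 0.632% were higher and 1.44% lower. On the array where they were lower, 135 of the 559 higher genes and 78 of the 342 lower genes had a signal under 4, so the sizes of those differences are not exact. The only yardstick within the 2 arrays is how well probe sets of a gene agree. Over 4965 genes with at least 2 detected probe sets the median SD between them was 0.38, and 41 genes had one probe set higher by at least 1 and another lower by at least 1. Of the higher genes 193 had another detected probe set, and at least 1 such probe set was also higher by at least 1 for 56 of them (29.0%). Of the lower genes 144 had one, also lower by at least 1 for 42 (29.2%). By probe set, 63 of the 269 others of the higher genes were higher by at least 1 (23.4%). Among all 8072 detected probe sets that are not the main one of their gene 4.74% were. For the lower genes 50 of 233 were lower by at least 1 (21.5%), against 11.4% of those 8072.

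The genes with the largest positive differences, taken with signals under 4 set to 4, included regulators of the stress response, of transcription and of splicing. EPC1, a subunit of the TIP60 acetyltransferase complex, had a log2 signal of 7.83 on the untreated array, 9.65 on the caffeine array, 8.86 on the with-caffeine array and 5.13 on the alone array, a difference of 3.72. GADD45G, a growth arrest gene, ran 6.27, 6.97, 7.62 and 3.81 over the arrays in that order, a difference of 3.81. BRF2, an initiation factor of RNA polymerase III, ran 6.97, 7.85, 7.44 and 3.75, a difference of 3.69. In each of them the alone array was the low one and the with-caffeine array stayed near the start. DDIT3, the stress transcription factor CHOP, ran 7.81, 9.16, 9.32 and 6.12, a difference of 3.20. For CLK1, a kinase that phosphorylates splicing factors of the SR family, the signals were 7.53, 9.63, 8.83 and 5.66, a difference of 3.17. ZNF473, a zinc finger protein of histone mRNA processing, ran 5.97, 7.68, 7.06 and 3.02, a difference of 4.05, or 3.06 with the signal under 4 set to 4. All 12 genes had also been higher on the caffeine array than untreated, by 0.70 to 2.84, and the difference uses neither of those arrays. CACNB2, a subunit of calcium channels, ran 5.10, 6.61, 6.95 and 3.94, a difference of 3.01. TADA1, a subunit of the SAGA coactivator complex, ran 9.01, 9.81, 9.22 and 6.39, a difference of 2.83. GPATCH8, a protein with a G-patch domain, ran 6.64, 7.60, 7.31 and 4.55, a difference of 2.76.

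The remaining genes of the highest 12 returned on the alone array to about the untreated level. CDKN2AIP, a partner of the tumour suppressor ARF, stood at 6.16 untreated, 8.76 after caffeine, 8.22 with caffeine kept and 5.52 without it, a difference of 2.71. PPP1R15A, which brings a phosphatase to the translation factor eIF2 and so lifts the translation block of stress, stood at 4.03, 6.87, 6.67 and 3.87, a difference of 2.80. TNFAIP3, a ubiquitin-editing inhibitor of NF-kB signalling, stood at 5.40, 7.95, 7.87 and 5.22, a difference of 2.65. All 12 were within 1 of the caffeine array when caffeine was kept, at -0.80 to 0.65, and below it by 2.67 to 4.66 when it was withdrawn. The alone array was below each of the 3 other arrays by at least 1 in 9 of the 12. Another detected probe set existed for 6 of them, and the 7 such probe sets were all higher by at least 1, from 1.10 for BRF2 to 3.16 for PPP1R15A.

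**Figure D2:**
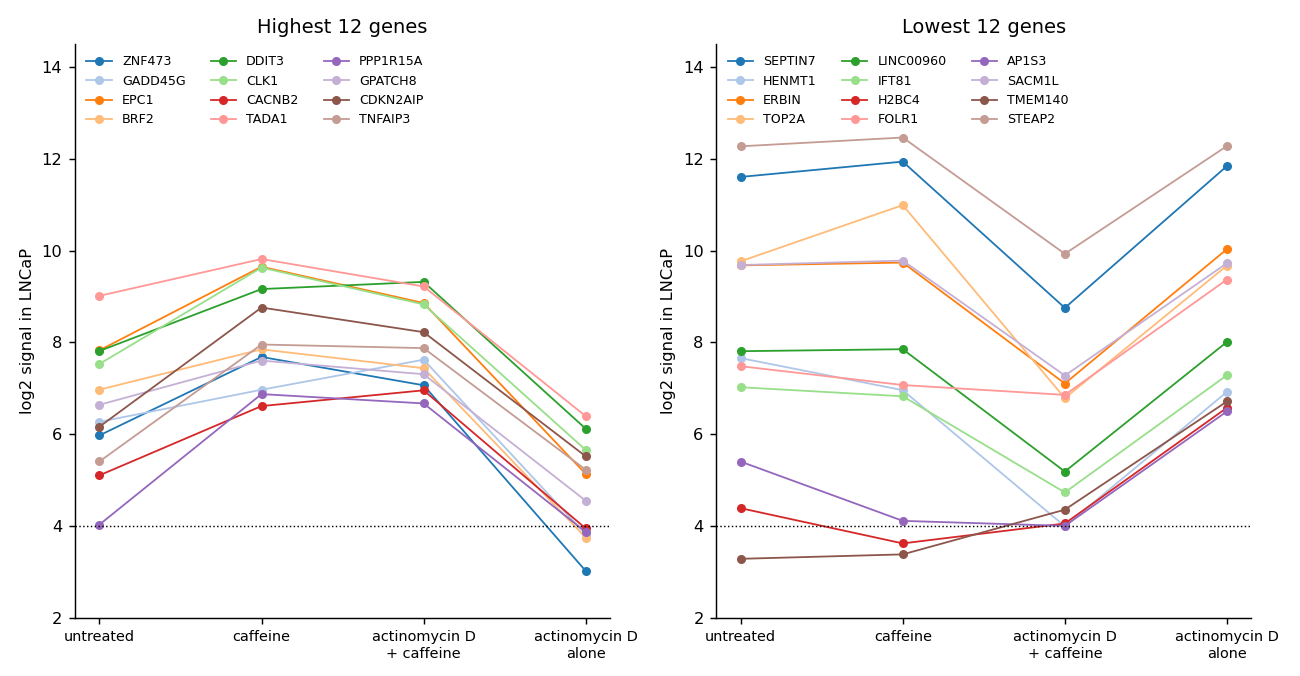
Log2 signals over the 4 LNCaP arrays for the 12 genes with the largest positive difference (left) and the 12 with the largest negative difference (right), each line a gene and the dotted line the detection level of 4. The highest genes drop on the alone array, while 8 of the lowest dip on the with-caffeine array and the other 4 are raised on the alone array.

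The genes with the largest negative differences fell into a pair of patterns. In the first the with-caffeine array, the one with the high 18S signal, was the low one. SEPTIN7, a GTPase of septin filaments, had a log2 signal of 11.60 on the untreated, 11.94 on the caffeine, 8.75 on the with-caffeine and 11.84 on the alone array, a difference of -3.09. HENMT1, which methylates small RNAs of the germ line, ran 7.66, 6.96, 3.99 and 6.92, a difference of -2.93. ERBIN, a scaffold protein that binds the receptor ERBB2, ran 9.68, 9.74, 7.10 and 10.03, also a difference of -2.93. All 3 were close to the start when caffeine was withdrawn and far below it when caffeine was kept. TOP2A, the topoisomerase of dividing cells, ran 9.77, 10.99, 6.78 and 9.67, a difference of -2.89. For the noncoding transcript LINC00960 the signals were 7.81, 7.85, 5.18 and 8.01, a difference of -2.82. The same shape was seen for IFT81 (-2.55), of intraflagellar transport, for the phosphoinositide phosphatase SACM1L (-2.45) and for STEAP2 (-2.35), a metalloreductase abundant in prostate.

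Other probe sets of these genes did not follow. ERBIN had -0.04, TOP2A -0.12 and LINC00960 -0.23 on their other detected probe sets, and the other 5 genes of this pattern had no other detected probe set. In 22Rv1 the main probe sets of the 8 genes gave -0.15 for HENMT1 to 0.49 for TOP2A. The negative differences of this shape therefore rest on 1 array and mostly on 1 probe set each.

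In the second pattern the alone array was the high one. H2BC4, a histone H2B gene, ran 4.39, 3.62, 4.05 and 6.57 over the arrays, a difference of -2.52. FOLR1, the folate receptor alpha, ran 7.48, 7.07, 6.85 and 9.37, a difference of -2.51. AP1S3, a subunit of a clathrin adaptor, ran 5.40, 4.11, 4.001 and 6.50, a difference of -2.49, and its other probe sets gave -2.70, -2.05 and 0.03. TMEM140, a membrane protein, ran 3.28, 3.38, 4.35 and 6.71, a difference of -2.36. Such a raised signal 4 hours into a transcription block was seen in 70 of the 342 lower genes (20.5%), where the alone array was above each of the 3 others by at least 1. The with-caffeine array was below each of the 3 others by at least 1 in 148 lower genes (43.3%). Among the 559 higher genes the alone array was the low one in 258 (46.2%) and the with-caffeine array the high one in 39 (6.98%). The genes were chosen by the difference between these 2 arrays, so that 1 of them stands out is partly built in. The shares over all detected genes are not given here, so these counts only describe the chosen genes.

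Set against the caffeine array, the start of the second step, the higher and lower genes had different courses. These differences share arrays with the difference that chose the genes, so they are given as a description. With a change of at least 1 as the limit, 316 of the 559 higher genes (56.5%) were below the start on the alone array and within 1 of it with caffeine kept, 54 (9.66%) were below it on both arrays, 59 (10.6%) were above it only on the with-caffeine array, and 125 (22.4%) were within 1 of it on both. The median change from the start was -0.04 with caffeine and -1.38 without it. Of the 342 lower genes, 159 (46.5%) were below the start with caffeine kept and within 1 of it without, and 75 (21.9%) were above it on the alone array and within 1 of it with caffeine. Their median change was -1.03 with caffeine and 0.33 without it. Over all 10723 genes the medians were 0.01 and -0.06, and 8451 (78.8%) were within 1 of the start on both arrays. Of all these genes 6.69% were below the start only on the alone array and 3.94% on both arrays. Only on the with-caffeine array 3.32% were below it and 2.03% above it, and 2.02% were above it only on the alone array.

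DDIT4, an inhibitor of mTOR signalling, and MYC declined most among the higher genes even with caffeine kept. DDIT4 had 12.09 on the untreated array, 10.56 on the caffeine array, 5.93 on the with-caffeine array and 4.68 on the alone array, a difference of 1.25. MYC, the growth regulator with a short-lived mRNA, ran 12.66, 12.62, 9.31 and 7.92, a difference of 1.39. At the other end, 5 of the 559 higher genes (0.89%) were above the start by at least 1 on both arrays. Of all 10723 detected genes 342 were so (3.19%), a larger share. The 5 genes were AHNAK2, CCDC80, LDHD, PCNX3 and TTF1, with differences of 1.34, 1.15, 1.04, 1.28 and 1.02. They are named because they are few and were picked after their values were seen.

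**Figure D3:**
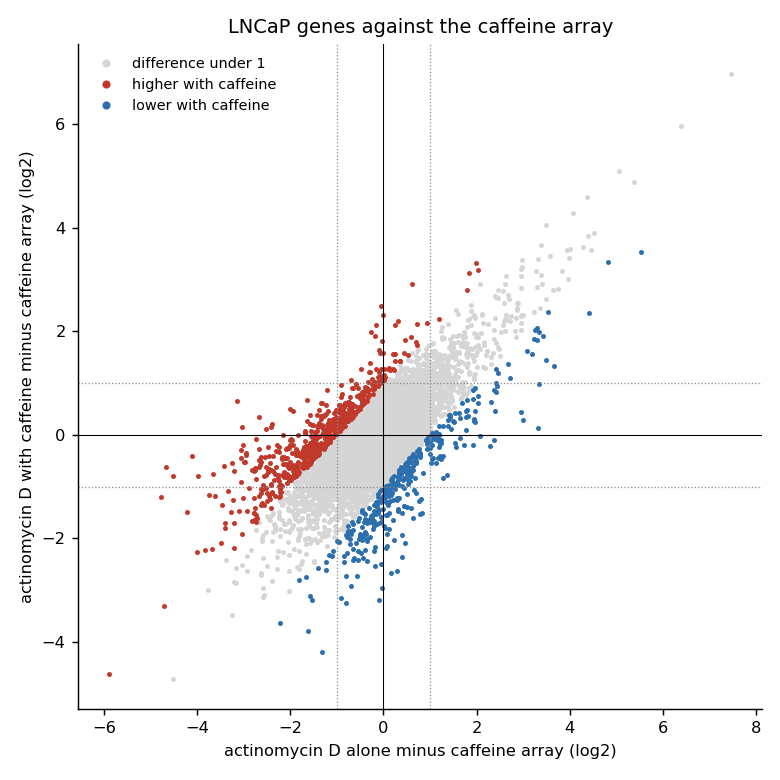
Change of each detected LNCaP gene from the caffeine array, on the log2 scale, on the array with actinomycin D alone (horizontal) and with actinomycin D and caffeine (vertical), coloured by the difference between the 2. Dotted lines mark changes of 1. Most of the higher genes lie to the left of 0, with a median of -1.38 without caffeine, and a group of genes at the upper right is above the start by at least 3 on both arrays.

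Some genes were far above the start on both actinomycin D arrays, although actinomycin D was present. By the smaller of the 2 rises the first was TDO2, which encodes an enzyme of tryptophan breakdown, at 4.80 untreated, 4.0 after caffeine, 10.97 with caffeine kept and 11.47 without it. OASL, an interferon-induced antiviral gene, ran 4.38, 3.69, 9.65 and 10.07, and IFI44, another interferon-induced gene, ran 4.19, 4.04, 9.15 and 9.10. In these genes the 2 arrays compared were alike, and both stood apart from the untreated and caffeine arrays. Rises of at least 3 on both arrays were found for 23 of 10723 genes in LNCaP (0.214%) and for 6 of 10047 in 22Rv1 (0.0597%). The poly-A controls were above the caffeine array by much less, with means of 6.18 on the caffeine, 7.32 on the with-caffeine and 7.71 on the alone array. The origin of these rises was not tested, and any change from the caffeine array given above includes whatever raised them.

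The lists of genes known for NMD had medians above that of all detected genes. All gene lists were chosen with earlier results of these data known, so their medians are a description and no test. A list is described by how many of its detected genes were past 1 and by its median, to be read beside 5.21% higher, 3.19% lower and a median of 0.10 for all detected genes. Of 14 detected transcripts used as NMD reporters 4 were higher and 0 lower, with a median of 0.66 (quartiles 0.27 and 1.54). DDIT3 and PPP1R15A, described above, have upstream reading frames, and with them were IFRD1, a coregulator of transcription, and GADD45A, of the DNA damage response. IFRD1 ran 9.25, 10.66, 10.13 and 7.69 over the 4 arrays, a difference of 2.44, with 2.33 and 1.76 for its other probe sets. GADD45A ran 9.20, 9.27, 9.47 and 7.70, a difference of 1.78. DDIT3, PPP1R15A and GADD45A also belong to the list of stress feedback genes below, so the lists are not independent. Not all substrates moved: the snoRNA host GAS5 had 0.03, ATF4, the master transcription factor of the stress response, 0.17 and the asparagine synthetase gene ASNS -0.09.

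Of 16 listed snoRNA host transcripts only 6 had a probe set of their own, and all 6 were detected. Among them 2 were higher and none lower, with a median of 0.62. TAF1D ran 7.55, 7.78, 8.39 and 6.45, a difference of 1.94. SNHG17 ran 8.21, 10.21, 9.77 and 8.07, a difference of 1.70 that returned to the untreated level on the alone array. SNHG32 and EPB41L4A-AS1 stayed within 1 of the start on both arrays, with differences of 0.65 and 0.59, although the second had another probe set at -0.33. Of 21 listed NMD and exon junction factors 15 had a probe set of their own, and all 15 were detected. They had a median of 0.44 (quartiles 0.21 and 0.81), with 14 of 15 above 0 and only SMG9 past 1, at 1.06. SMG9, a partner of the kinase SMG1, ran 5.89, 6.91, 6.88 and 5.82. DHX34, a helicase of the pathway, followed with 0.96, the exon junction protein gene MAGOHB with 0.86 and SMG8, another SMG1 partner, with 0.84.

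Among splicing regulators a pair of kinases were past 1. The list of CLK and SRPK kinases holds 8 genes, with DYRK1A and DYRK1B counted among them. CLK1 (3.17) and CLK4 (1.91) were higher by at least 1, 5 of 8 were above 0, and the median was 0.54. CLK4 ran 7.20, 8.85, 8.51 and 6.60, and another of its probe sets gave 0.48. The 28 SR proteins and other splicing regulators had a median of 0.05, with 1 higher and 1 lower. The higher was HNRNPA1, an abundant nuclear RNA-binding protein, at 11.21, 12.86, 12.36 and 11.17, a difference of 1.19, and 1.82 and 2.15 for its other probe sets. The lower was SRSF11, at 11.18, 11.45, 10.12 and 11.32, a difference of -1.20, and -0.17 for its other probe set.

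The feedback genes of the integrated stress response, in which phosphorylated eIF2 slows translation and favours ATF4, had a median of 0.63 over 18 genes, with 6 higher and none lower. Besides DDIT3, PPP1R15A, GADD45A and DDIT4 these were SESN2, an antioxidant regulator, and the secreted hormone gene STC2. SESN2 ran 6.14, 7.33, 6.24 and 3.99, a difference of 2.25 (0.76 for another probe set), and STC2 had a difference of 1.5. The genes of amino acid supply that ATF4 controls had a median of 0.28 over 17 genes, with only the transporter SLC38A2 past 1, at 11.92, 12.67, 11.32 and 10.11, a difference of 1.21. The list of ER chaperones, which also holds the stress sensor genes ERN1 and ATF6, had a median of 0.08 with none of 17 past 1. Heat shock and chaperone genes had a median of 0.07 over 22, with BAG2, a cochaperone of HSP70, the 1 lower gene at -1.21.

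**Figure D4:**
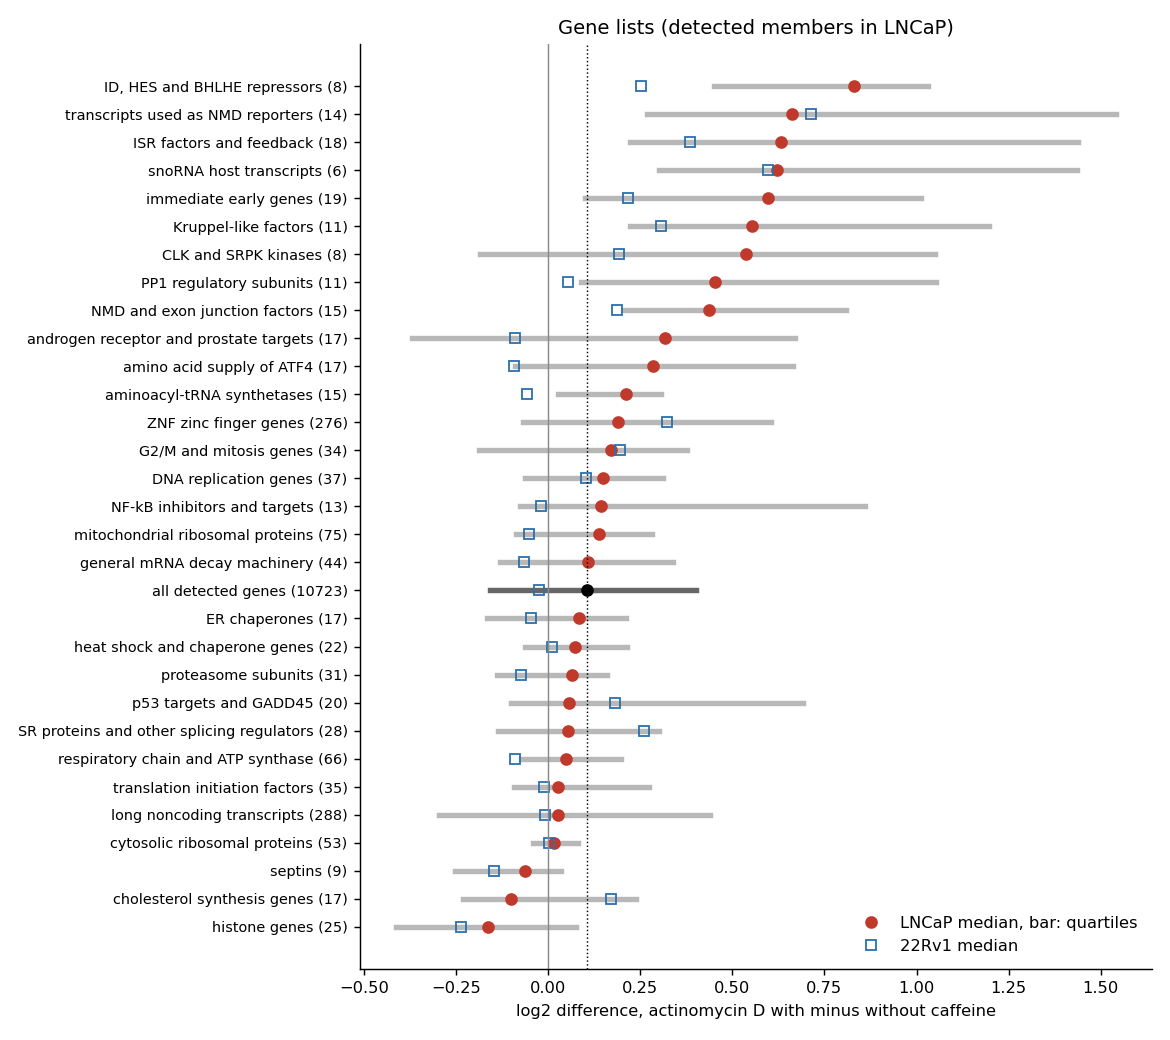
Median log2 difference (filled points) and quartiles (bars) of the detected genes of each list in LNCaP, with the number of genes in brackets, and the median of the same genes detected in 22Rv1 (open squares). The dotted line is the median of all detected LNCaP genes, 0.10. The repressors, NMD reporters and stress feedback genes stand at 0.83, 0.66 and 0.63, and the ribosomal proteins at 0.02.

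Transcription factors and signalling genes with short-lived mRNAs were on the higher side too. Of 19 detected immediate early genes 6 were higher and none lower, with a median of 0.60. IER5 ran 7.60, 7.79, 7.22 and 5.63, a difference of 1.60, and JUNB, a component of the AP-1 factor, ran 6.42, 6.76, 6.04 and 4.64, a difference of 1.40. DUSP2, a phosphatase of MAP kinases, ran 7.11, 5.42, 5.12 and 3.70, a difference of 1.43, or 1.12 with signals under 4 set to 4. DUSP1 (-0.22) and JUN (0.09) of the same list had values near 0. The Kruppel-like factors had a median of 0.55 over 11 genes, with all 11 above 0 and 3 past 1. KLF6 ran 6.02, 8.53, 8.53 and 6.38, a difference of 2.15, with 0.84, 0.94 and 2.13 for its other probe sets. KLF4 ran 7.25, 9.48, 8.69 and 6.92, a difference of 1.77, with 2.24 for another probe set, and KLF10 had 1.43. In KLF6 and KLF4 the alone array again lay near the untreated level.

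The repressors of the ID, HES and BHLHE families had a median of 0.83 over 8 genes, with 3 higher and none lower. BHLHE40, a repressor of the circadian clock, ran 9.63, 7.80, 6.59 and 3.03, a difference of 3.56, or 2.59 with the signal under 4 set to 4. ID3, an inhibitor of differentiation, ran 9.31, 7.35, 6.54 and 5.47, a difference of 1.08, and ID1 had 1.02. BHLHE40 and ID3, like DDIT4, were already lower after caffeine than untreated. Of the PP1 regulatory subunits, which steer protein phosphatase 1, 3 of 11 were higher, with a median of 0.45. PPP1R3B, the subunit for glycogen in liver, ran 7.42, 7.36, 6.91 and 4.30, a difference of 2.61, and PPP1R3D, another glycogen subunit, ran 8.52, 8.26, 6.56 and 5.04, a difference of 1.52.

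The NF-kB inhibitors and targets went both ways, 3 higher and 1 lower of 13 with a median of 0.14. IRF1, an interferon regulatory factor, ran 4.32, 5.13, 7.12 and 4.88, a difference of 2.24, with 2.68 for its other probe set. RELB, a subunit of NF-kB, ran 3.17, 3.23, 5.37 and 3.95, a difference of 1.42. CXCL8, the chemokine interleukin 8, went the other way at 3.07, 3.39, 4.72 and 7.04, a difference of -2.32, with -3.50 for its other probe set. In these genes, TNFAIP3 apart, at least one actinomycin D array was above both earlier arrays. PSMB9, an interferon-induced proteasome subunit, did likewise at 2.36, 2.37, 4.39 and 5.63, a difference of -1.24.

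The lists of cell division and of DNA replication had like medians. Of 34 G2/M and mitosis genes 3 were lower and 1 higher, with a median of 0.17. Beside TOP2A, NUF2, of the kinetochore, ran 8.93, 9.09, 6.16 and 8.39, a difference of -2.24, and ANLN, of the cleavage furrow, 9.35, 9.78, 7.67 and 9.06, a difference of -1.39, with -0.42 for another probe set. The kinase gene AURKB was the higher one, at 7.92, 8.97, 8.41 and 7.39, a difference of 1.01. Of 37 DNA replication genes 3 were higher and 0 lower, with a median of 0.15. They were ORC1, of the origin recognition complex, at 1.42, the helicase subunit MCM2 at 1.10 and the polymerase gene POLE at 1.06. The androgen receptor and prostate targets had a median of 0.32 over 17 genes, and STEAP2 was the only one past 1. ACP3, prostatic acid phosphatase, ran 4.18, 7.61, 5.94 and 4.95, a difference of 0.98.

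Histone genes, whose replication-dependent mRNAs mostly lack a poly-A tail, had the lowest median of the lists of 5 genes or more, -0.16 over 25 genes, with 0 higher and 3 lower. After H2BC4 came H2AC15, at 4.81, 5.56, 3.88 and 5.30, a difference of -1.42 (-1.30 with signals under 4 set to 4), and H3C6 at -1.06 (-0.87). Zinc finger genes named ZNF, the largest transcription factor family, had 35 higher and 6 lower of 276 (12.7% and 2.17%), with a median of 0.19. ZNF689 ran 7.16, 7.70, 6.51 and 4.09, a difference of 2.42, and ZNF217, the lowest, 9.79, 9.10, 5.32 and 7.49, a difference of -2.17. Of 288 detected long noncoding transcripts 20 were higher (6.94%) and 13 lower (4.51%), with a median of 0.03. MCM3AP-AS1 ran 4.73, 2.41, 5.32 and 3.01, a difference of 2.30, or 1.32 with the signal under 4 set to 4. MARCHF6-DT ran 8.68, 6.35, 6.19 and 7.88, a difference of -1.69.

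Further lists had medians of -0.10 to 0.21 and differed in how many members were past 1. The 53 detected cytosolic ribosomal protein genes had a median of 0.02 and ran from -0.26 to 0.98, with none past 1. Respiratory chain and ATP synthase genes had a median of 0.05 over 66 genes and aminoacyl-tRNA synthetases 0.21 over 15, again with none past 1. Translation initiation factors had a median of 0.03 over 35, and EIF5, which acts at start codon selection, was the only one past 1, at 12.55, 12.76, 12.30 and 11.03, a difference of 1.27, with 0.21 to 1.56 for its other probe sets. Proteasome subunits had a median of 0.06 over 31, with PSMB9 and PSMA1 lower by at least 1. The 44 genes of general mRNA decay had a median of 0.11, with EDC3, a decapping enhancer, at -1.21 and the deadenylase subunit PAN3 at -1.01. Mitochondrial ribosomal proteins had a median of 0.14 over 75 with MRPS33 at -1.12, cholesterol synthesis genes -0.10 over 17 with STARD4 at -1.19, and p53 targets and GADD45 genes 0.06 over 20, with 3 higher and 1, RRM2B, lower at -1.23. Septins had a median of -0.06 over 9. Besides SEPTIN7 the value of SEPTIN10 was -1.23, with -0.32 for another probe set. SEPTIN1 had 1.15, but only 0.23 with the signal under 4 set to 4.

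Accumulation, the caffeine array minus the untreated array, uses neither of the 2 arrays compared. Of the 559 higher genes 99 had also been higher by at least 1 after the first 4 hours of caffeine (17.7%) and 29 lower (5.19%), with a median of 0.18. Of the lower genes 11 had been higher (3.22%) and 26 lower (7.60%), with a median of -0.05. The shares over all detected genes were 4.81% and 3.59%, with a median of -0.03. Genes that were higher with caffeine kept were thus also more often raised by caffeine before the block than all detected genes, and the lower genes had more often been lowered by it. No test of these shares is given, since each rests on 1 array per treatment. By genome annotation, the higher genes were shorter, with a median length of 21.8 kb (quartiles 9.73 and 61.8), and the lower genes longer, with 45.7 kb (17.5 and 105), than all detected genes at 29.6 kb (11.8 and 70.1).

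The 22Rv1 line gave a second look at the same treatments with arrays of its own, which were normalized together with those of LNCaP. Of the 559 higher genes 461 were detected in 22Rv1, and 115 of these were higher by at least 1 there as well, 24.9% of these 461 and 38.9% of the 296 genes higher in 22Rv1, against 2.95% of all 10047 genes detected in both lines. Their median difference in 22Rv1 was 0.45, and 76.6% were above 0, against -0.02 and 46.5% for all genes. Of the 342 lower genes 251 were detected in 22Rv1, and 2 were lower by at least 1 there, 0.797% of them and 2.25% of the 89 genes lower in 22Rv1, against 0.886% of all. These were BAG2, at -1.21 in LNCaP and -1.33 in 22Rv1, and LUZP2, at -1.04 and -1.01. The lower genes had a median of -0.06 in 22Rv1, and 54.6% were below 0, against 53.4% of all genes. Over the 10047 genes Pearson's r between the differences of the lines was 0.31 and Spearman's rho 0.25, as a description across genes, which are not independent replicates. The 5' poly-A controls were lower with caffeine in both lines, and their part in this likeness was not tested.

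Among the highest 12 genes of LNCaP, 8 were also higher by at least 1 in 22Rv1. CDKN2AIP had 4.04 there, DDIT3 3.22, ZNF473 3.22, PPP1R15A 2.72, BRF2 2.67, GADD45G 2.65, CLK1 2.50 and EPC1 2.24. The others were lower in size, with TADA1 at 0.98, GPATCH8 at 0.62 and CACNB2 at 0.23, while TNFAIP3 was below 4 on both 22Rv1 arrays. Of the lowest 12, AP1S3, H2BC4 and TMEM140 were below 4 on both 22Rv1 arrays, and none of the other 9 was lower by at least 1 there, the nearest being FOLR1 at -0.94. BHLHE40, PPP1R3B, RELB and CXCL8 were below 4 on both actinomycin D arrays of 22Rv1, so no difference of theirs can be read there.

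**Figure D5:**
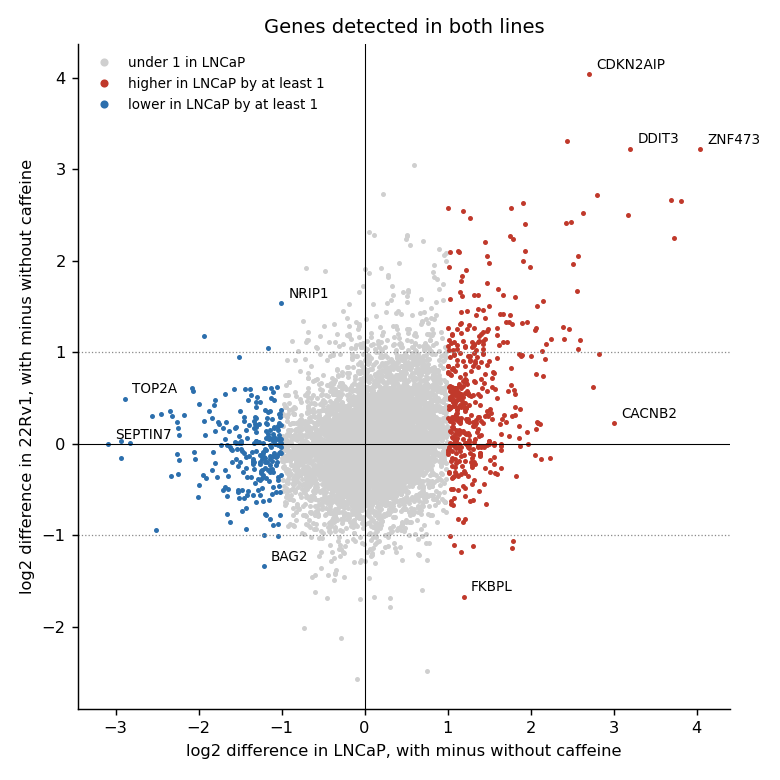
Log2 difference with minus without caffeine in LNCaP (horizontal) and 22Rv1 (vertical) for the genes detected in both lines, coloured by the LNCaP difference. The genes higher in LNCaP extend upward, with a median of 0.45 in 22Rv1, and the lower genes lie around 0, with a median of -0.06.

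A difference shared by the lines was fitted with limma over all 8 arrays, with the lines as the replicates, and 0 of 21398 probe sets (0.0%) had an adjusted p under 0.05, while 1700 had an unadjusted p under 0.05. The nearest among the LNCaP genes above were CLK1, with a shared difference of 2.84 (SE 0.23, adjusted p = 0.0869 from limma), PPP1R15A, with 2.76 (SE 0.22, adjusted p = 0.0869 from limma), ZNF473, with 3.63 (SE 0.31, adjusted p = 0.0869 from limma), and ZNF689, with 2.42 (SE 0.19, adjusted p = 0.0869 from limma). SEPTIN7 had -1.55 (SE 0.79, adjusted p = 0.714 from limma), which is the mean of -3.09 in LNCaP and -0.004 in 22Rv1. These genes were named for their LNCaP differences, and the same LNCaP arrays enter the fit. With a variance trend 7 probe sets passed and with a mean of at least 6 as the filter 5 did, CLK1, PPP1R15A, ZNF473 and HNRNPDL, an RNA-binding protein that controls its own splicing, being named in both. The fit says nothing of LNCaP alone.

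The study sought genes inactivated by mutation, as transcripts low in one line, raised by caffeine and kept by it during the block. It then sequenced candidates and reported mutations in both alleles of PARD3 in LNCaP, with RT-PCR of its mRNA. For CLPTM1 it cites a mutation found earlier. Applied to the deposited values, its cut-offs were met by 7 probe sets for LNCaP. The difference is one of the criteria and these samples chose the list, so the values describe the selection and support nothing else. For PARD3, a cell polarity protein, the probe set selected ran 3.23, 6.13, 6.29 and 4.72 over the 4 arrays, a difference of 1.56 in LNCaP and 0.09 in 22Rv1. The main PARD3 probe set, which did not enter by the criteria, ran 4.34, 5.71, 6.44 and 4.80, a difference of 1.64 and -0.26 in 22Rv1, and a further detected one gave 1.16. The PARD3 probe sets therefore went the same way on the 2 arrays. For CLPTM1, a membrane protein, the selected probe set ran 4.26, 5.89, 5.50 and 3.73, a difference of 1.76, while its main probe set ran 4.66, 5.38, 4.85 and 4.81, a difference of 0.04. VRK3, a kinase, had 2.50 on the selected probe set, with a signal of 2.80 on the alone array, and 0.42 on its main one. GTPBP2, which helps rescue stalled ribosomes, had 2.09 and on another probe set 0.64. The others were LMNTD2-AS1 at 1.48, ANKRD28 at 1.46 and AFF3 at 1.40, the last with 3.18 on the alone array. These names follow the array annotation used here, while the study lists the AFF3 probe set as AFF1 and that of LMNTD2-AS1 under an older locus name. The main probe set of AFF1 itself had -0.24. Of the further genes that the study names for LNCaP, JAK1, a kinase of cytokine signalling, ran 5.16, 8.01, 7.96 and 6.75. Its difference was 1.21, and -1.11 on another probe set. In 22Rv1, which the study states also has a JAK1 mutation, the main probe set gave 1.07 and the other 0.83. SYNJ2, a phosphoinositide phosphatase, had 0.35 and 0.51.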

How the data were processed

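The authors hybridised RNA of 4 LNCaP and 4 22Rv1 plates to 1 array each and deposited 1 log2 signal for each probe set and array, made by gcRMA with its background correction and quantile normalization. RMA and GCRMA are listed in the submitters' processing notes with no version. The deposited values were used unchanged. No scanner files, and so no depth beyond the signal, were used here.

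Gene names came from the annotation of the array, in which 41097 probe sets have 1 gene symbol, 1801 several and 11777 none. Of those with 1 symbol 41043 were found in RefSeq, which changed 0 symbols and gave the gene lengths. A gene is represented by the probe set with the highest mean over the LNCaP arrays, and it is detected with a signal of at least 4 on either array. A difference of at least 1 in size counts as higher or lower, and no test was made on LNCaP alone.

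Named genes comprise the 12 with the highest and the 12 with the lowest difference, with signals under 4 set to 4, for each list the 4 members farthest from 0, the candidates of the study and genes from counts of 5 or fewer. Further genes, DDIT4 and those of the rises on both actinomycin D arrays among them, were chosen after their values were seen. The members and the gene lists were chosen with earlier results of these data known.

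A difference shared by the lines was taken from a limma model (limma 3.58.1, R 4.3.3) of line and treatment over 8 arrays, with 3 residual degrees of freedom, for 21398 probe sets whose mean reached 4, and p-values were adjusted by Benjamini and Hochberg's method. Tested on simulated data of 21398 probe sets with 200 changed, the model called 0 when the change was 1 log2 unit (0 false calls), 110 when it was 2 (8 false calls) and 169 when it was 3 (10 false calls). Alternatives were other cut-offs, detection levels, scales, probe set choices and limma settings. Centring the genes on their median was chosen after seeing the data. Python 3.11.15, pandas 2.3.3, numpy 2.4.6 and matplotlib 3.10.9 were used.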

Additional observations from a re-analysis of the deposited data

Results flagged for a closer look

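The 18S rRNA probe sets, which enter no comparison of genes, were higher by a mean of 5.45 on the LNCaP array with caffeine than on the one without it, far above the levels of the untreated and caffeine arrays. Every difference in LNCaP uses this array.

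Among the genes detected in both lines, 10 were past 1 in opposite directions with caffeine kept. Of the 461 higher LNCaP genes detected in 22Rv1, 7 were lower there (1.52%), against 0.886% of all genes detected in both lines. Of the 251 lower ones 3 were higher there (1.20%), against 2.95% of all. The counts are small and lie near or below those shares. Whether the lines differed was not tested. Higher in LNCaP and lower in 22Rv1 were ABT1 (1.79 and -1.06), FAAH2 (1.16 and -1.19), FKBPL (1.19 and -1.67), FNDC10 (1.304 and -1.11), ID3 (1.08 and -1.11), RIPK4 (1.78 and -1.14) and TIAM2 (1.03 and -1.01). Lower in LNCaP and higher in 22Rv1 were the nuclear receptor corepressor gene NRIP1 (-1.003 and 1.53), RBL1 (-1.16 and 1.05), a relative of the retinoblastoma protein, and RHBDL2 (-1.93 and 1.18). FAAH2, FKBPL, RBL1, RHBDL2, RIPK4 and TIAM2 had a signal under 4 on at least 1 of the arrays compared, so their sizes are not exact. RBL1 had 2.90 and 4.06 in LNCaP and 4.04 and 2.99 in 22Rv1, with and without caffeine. Each value compares 1 array with 1 array.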

How the results depend on the processing

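With a cut-off of 1.3 the probe sets were 585 higher and 872 lower and the genes 267 and 184. With detection at 6 the probe sets were 606 and 913 and the higher genes 372, and with detection at 4 on both arrays 744 probe sets were higher. Made equal on the mean of all 24 poly-A control probe sets, which differed by position, 2928 probe sets were higher and 748 lower. Without probe sets whose name ends in _x_at or _s_at 841 were lower. The other 21 of these counts were within 1.5 times. Of 135 list medians under alternatives 131 moved by less than 0.38, the median SD between probe sets of a gene. The exceptions were the Kruppel-like factors with detection at 6 (0.96), the septins (-0.49) and the study's candidates (0.78) with the mean of all probe sets, and the list of JAK1, SYNJ2, CLPTM1 and PARD3 (1.21) with detection at 6. That limit is larger than many of the medians, so staying within it does not show that a list median holds. With the mean of all probe sets the median of amino acid supply went from 0.28 to 0.0017. That of the NMD and exon junction factors went from 0.44 to 0.22, and that of the snoRNA hosts from 0.62 to 0.68. The limma count was 5 with a mean of at least 6, 1 with no filter and 7 with a variance trend, and 0 with robust variances, no line block or only the 4 actinomycin D arrays, which left 1647, 330 and 2354 at an unadjusted p under 0.05. The shares of the courses kept within 1.5 times.

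Of 78 named genes past 1, 32 had another detected probe set. Of these 45 probe sets 25 were past 1 the same way, 17 were under 1 the same way and 3 had the opposite sign: AP1S3 (0.0264), JAK1 (-1.11) and PSMA1 (0.0593). With signals under 4 set to 4, 4 of the 78 fell under 1. The causes were not tested. No paired analysis was possible within LNCaP because each of its treatments has 1 array, and the limma fit pairs the treatments by line. Signals near the lowest value of the array limit the size of a difference, and nothing here measures the spread between plates.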

Other observations

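The genes farthest above the caffeine array on both LNCaP actinomycin D arrays were picked after their values were seen, as the 12 with the largest smaller rise. Antiviral and inflammatory genes were among them. IFIT1, an interferon-induced RNA sensor, had 5.97 on the untreated array, 4.86 on the caffeine array, 8.43 with caffeine kept and 9.31 without it, and IFIT2 ran 4.02, 5.83, 9.40 and 9.76. CCL8, a chemokine, ran 3.19, 2.79, 6.41 and 7.08. LCN2, an iron-binding protein of inflammation, ran 7.87, 8.02, 12.30 and 12.09, and CP, the copper protein ceruloplasmin, 3.96, 3.998, 7.90 and 8.51. PLAAT4, a retinoid-induced phospholipase, ran 5.48, 4.86, 9.74 and 10.24, and CES1, a carboxylesterase, 3.65, 3.69, 7.53 and 8.08. ANKRD36B ran 2.30, 2.29, 5.89 and 6.28.

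In 22Rv1 these genes were below 4 on all 4 arrays, as were TDO2, OASL and IFI44. SETD5 was the exception, at 6.92, 5.33, 9.92 and 9.69 in LNCaP and at 4.31, 4.09, 5.99 and 5.38 in 22Rv1. Between the 2 LNCaP arrays compared the 12 genes differed by -0.88 for IFIT1 to 0.23 for SETD5. A few genes of the interferon response did differ past 1, and not all the same way. CXCL10, a chemokine, was lower with caffeine at 2.36, 2.46, 5.99 and 7.99, a difference of -2.0. IFIT3 ran 2.35, 3.99, 7.33 and 8.82, a difference of -1.49. Of those given above, PSMB9 was lower, at -1.24, and the interferon regulatory factor IRF1 was higher, at 2.24. These values carry no test, and what raised the signals was not tested.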
